A study of Mus musculus with 8 samples.

Results

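The genes described here are 42 genes of cell division, taken as a named list of cyclins and kinases, DNA replication proteins, nucleotide synthesis enzymes and proteins of the mitotic spindle and chromosomes. A gene was counted when a probe of the array carried its symbol or a synonym, which held for 39 of the 42, out of 16593 genes on the array. Ccnb1, Mki67 and Aurkb had no such probe and are not analysed here. Each gene is represented by its brightest probe over all arrays. The 39 genes were read as 14 genes of S phase and the entry into it, and 25 genes of G2 and mitosis. RNA came from tibialis anterior muscles, a hindlimb muscle of mostly fast fibres, of male C57BL/6 mice aged 8 weeks. In the spermine oxidase group, 4 muscles had been transfected 7 days before harvest with a plasmid carrying spermine oxidase, the enzyme that turns spermine into spermidine and makes hydrogen peroxide. In the control group, 4 muscles had received a control plasmid, and were harvested at the same time. The labels name neither the promoter of the plasmids nor the share of fibres that took them up, and leave unsaid which muscles, if any, shared a mouse. The p-values given here therefore measure the spread between these muscles. If muscles of 1 group shared a mouse, that spread may be partly technical. If muscles of both groups shared a mouse, it also holds differences between mice, which an unpaired test does not take out. Every muscle was run on 1 Illumina bead array, and all values are log2 signals as deposited.

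A dividing cell copies its DNA in S phase and separates the copies in mitosis, and most genes of both steps are transcribed mainly in dividing cells. Cyclin D proteins release E2F transcription factors, which switch on replication genes such as the MCM helicase subunits. A later wave of transcription, acting through the cell cycle homology region (CHR) and CCAAT boxes, switches on genes such as the cyclin-dependent kinase Cdk1. Muscle fibres themselves have left the cell cycle. In muscle that recovers from an insult, satellite cells, macrophages, fibroblasts and endothelial cells can divide, so a whole-muscle value of these genes adds up several cell types. Fewer cells of a type and less RNA per cell cannot be told apart in such samples.

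The promoters of 5 members show where the motifs named above lie before genes of both groups. Each line gives the 250 bases before the RefSeq start (build GRCm38.p6), 5′ to 3′ on the strand of the gene. Capitals mark the CHR (TTTGAA), the CCAAT box (CCAAT) and the E2F core, searched as TTCCCGC or TTGGCGC or TTCGCGC, each on both strands. Cdk1 and Kif23 are the mitosis members, and Tyms and Mcm2 the S phase members, with the smallest p-values among those with a promoter in the table. Mcm5 was added after its motifs were seen. Cdk1 lies at chr10:69352913-69353162 on the minus strand, Kif23 at chr9:61946800-61947049 on the minus strand, Mcm5 at chr8:75109259-75109508 on the plus strand, Mcm2 at chr6:88898781-88899030 on the minus strand and Tyms at chr5:30073626-30073875 on the minus strand.
Cdk1: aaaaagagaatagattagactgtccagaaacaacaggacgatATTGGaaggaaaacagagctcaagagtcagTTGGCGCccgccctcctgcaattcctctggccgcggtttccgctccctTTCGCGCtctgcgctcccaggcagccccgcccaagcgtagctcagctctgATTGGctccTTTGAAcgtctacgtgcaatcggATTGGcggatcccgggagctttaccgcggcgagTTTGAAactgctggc
Kif23: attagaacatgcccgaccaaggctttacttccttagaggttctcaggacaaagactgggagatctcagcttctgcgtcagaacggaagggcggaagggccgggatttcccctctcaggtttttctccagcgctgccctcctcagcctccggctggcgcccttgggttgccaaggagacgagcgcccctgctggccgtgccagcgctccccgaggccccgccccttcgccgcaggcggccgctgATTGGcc
Mcm5: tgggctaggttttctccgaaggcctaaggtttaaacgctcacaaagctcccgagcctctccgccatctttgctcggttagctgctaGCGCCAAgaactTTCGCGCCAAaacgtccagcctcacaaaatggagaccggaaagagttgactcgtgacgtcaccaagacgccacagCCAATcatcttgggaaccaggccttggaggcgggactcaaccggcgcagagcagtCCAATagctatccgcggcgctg
Mcm2: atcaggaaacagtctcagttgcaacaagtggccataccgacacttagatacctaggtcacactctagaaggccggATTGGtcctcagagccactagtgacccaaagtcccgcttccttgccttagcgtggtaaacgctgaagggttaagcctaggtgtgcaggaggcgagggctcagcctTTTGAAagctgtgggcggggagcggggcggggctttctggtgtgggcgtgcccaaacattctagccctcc
Tyms: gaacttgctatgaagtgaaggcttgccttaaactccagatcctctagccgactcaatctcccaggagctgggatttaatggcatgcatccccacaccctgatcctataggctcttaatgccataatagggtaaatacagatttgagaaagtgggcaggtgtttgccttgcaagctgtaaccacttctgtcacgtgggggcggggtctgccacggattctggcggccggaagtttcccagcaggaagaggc
The Cdk1 window held 2 CHR motifs, beginning 71 and 15 bases before the start, 3 CCAAT boxes and 2 E2F cores. In Kif23 the CCAAT box began 7 bases before the start, and a CHR began at base 3 after it, beyond the printed bases. Mcm5 held 3 E2F cores, at 164, 152 and 149 bases before the start, of which the last 2 overlap, and no CHR. Mcm2 had the one CHR among the S phase windows, beginning 70 bases before the start, and no E2F core. The Tyms window held none of the 3 motifs, which says only that these letters are not in it.

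Among the members with a promoter in the table, the CHR was more frequent in windows of mitosis members and the E2F core in windows of S phase members. Over the 250 bases before and 50 bases after the start, the CHR was present in 17 of 22 windows of 21 mitosis members (77.3%) and in 1 of 13 windows of 12 S phase members (7.69%). It was present in 14.9% of the 16535 windows of all array genes and in 17.9% of all 32851 windows of the table. The E2F core ran the other way, in 2 of 22 mitosis windows (9.09%) and in 7 of 13 S phase windows (53.8%), with 11.1% of the windows of array genes and 8.07% of all windows. The CCAAT box was frequent in both, in 19 of 22 mitosis windows (86.4%) and 9 of 13 S phase windows (69.2%), with 37.8% of the windows of array genes and 37.4% of all windows. Motifs that share letters were each counted. In several mitosis windows, among them those of Kif23, Plk1 and Aurka, the only CHR began after the start, at bases 3, 31 and 33. The E2F cores of Mcm3 also began after the start. No window was used for Ccna2, Ccnd1, Mcm4, Stmn1, Tpx2 and Kif20a. These are matches of letters and show no binding.

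The labels were checked on Smox, the gene on the plasmid. Its brightest probe read 12.58, 11.56, 12.02 and 11.60 in spermine oxidase muscles 1 to 4, against 11.15, 10.92, 10.90 and 10.17 in control muscles 1 to 4, without overlap (difference 1.16 ± 0.28, SE, limma adjusted p = 0.233). All 5 Smox probes separated the groups (exact two-sided permutation p = 0.0286, the smallest possible with 4 against 4). The dimmer Smox probes differed by 1.15, 3.44, 3.30 and 3.34. Muscle fibre genes fitted the labelled tissue, since Acta1, Ckm and Mylpf averaged 15.0, 14.9 and 15.2. The fast-fibre genes Myh4, Tnnt3 and Pvalb averaged 14.1, 14.6 and 15.1. The 8 arrays had medians of 8.33 and spanned 8.1 to 15.29 (precision is limited by having 4 arrays in each group). No detection call is given, and the scale ends in a floor close to 8.1, near which any difference is compressed.

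No member passed the unpaired test of spermine oxidase against control. With limma over all genes and Benjamini-Hochberg adjustment, 0 of 39 members had an adjusted p under 0.05, as did 0% of all 16593 genes (smallest adjusted p 0.147), and the smallest adjusted p of a member was 0.268. Over the 19 members given in full, unadjusted limma p-values ran from 0.0066 to 0.841 and exact permutation p-values from 0.0286 to 0.857. Without adjustment, limma gave a p under 0.05 for 2 members, both lower, and for 1833 genes in all. That is 2 of 39 members, beside 4.72% of all genes lower at this level, and so near the background. The groups did not overlap for the same 2 members, Cdk1 and Kif23, beside 2.51% of all genes lower without overlap. On its brightest probe, no member was higher at an unadjusted p under 0.05, which 6.33% of all genes were. None was higher without overlap on that probe, which 3.66% of all genes were.

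Most members, but not all, had a small difference in one direction. The mean was lower in spermine oxidase muscles for 29 of 39 members, where 50.8% of all genes were lower. The median difference (log2, spermine oxidase minus control) was -0.047 over the members and -0.00064 over all genes. The list carries no test of its own. By group, 18 of 25 mitosis members were lower with a median difference of -0.067, and 11 of 14 S phase members were lower with a median difference of -0.044. The medians leaned on single muscles. Without spermine oxidase replicate 1 they were -0.043 for mitosis and -0.0062 for S phase members, and without control replicate 3 they were -0.047 and -0.013. Without control replicate 1, the lowest control, they were -0.099 for mitosis and -0.068 for S phase members.

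The differences were larger among brighter members. The median gene of the array had a mean signal of 8.37, and 30 members lay above it. Of these 25 were lower, with a median difference of -0.12, where all genes above that signal had a median of -0.0073 and 52.9% were lower. The 9 members at or under it were all mitosis genes, with means from 8.20 upward, and 4 of them were lower, with differences between -0.011 and 0.035. These 9 were Ccna2, Ccnb2, Bub1, Ube2c, Kif20a, Hmmr, Cks1b, Cks2 and Stmn1, which encode cyclins A2 and B2, a checkpoint kinase, a ubiquitin-conjugating enzyme of mitotic exit, a spindle motor, a spindle-binding hyaluronan receptor, a pair of Cdk-binding subunits and the tubulin-binding protein stathmin. Their probes lay close to the floor.

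**Figure D1:**
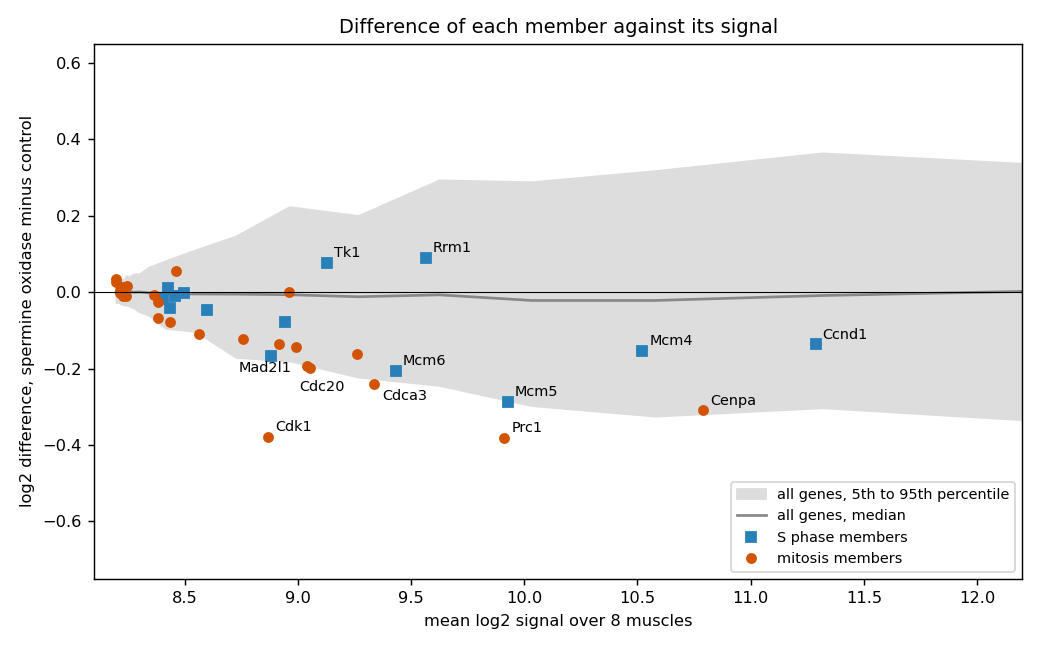
Each point is a member, placed by its mean log2 signal over the 8 muscles (horizontal) and its log2 difference, spermine oxidase minus control (vertical), with squares for S phase and circles for mitosis members. The grey band spans the 5th to 95th percentile of all genes at that signal. Cdk1 (-0.38) and Prc1 (-0.38) lie clearly below the band, Cdca3, Cdc20, Mad2l1, Mcm5 and Kif23 just below its edge and Cks2 just above it, 25 of the 30 members above a signal of 8.37 lie below 0, and Tk1 and Rrm1 lie above 0.

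Among S phase members the MCM genes, whose products form the ring-shaped helicase that unwinds DNA ahead of replication, included the members with the largest differences, Mcm5 and Mcm6. Mcm5 read 9.35, 10.09, 9.94 and 9.76 in spermine oxidase muscles 1 to 4, against 9.81, 10.06, 10.33 and 10.09 in control muscles 1 to 4. The groups overlapped, and the lowest value was spermine oxidase muscle 1. The Mcm5 difference was -0.29 ± 0.17 (SE, n = 4 each, limma adjusted p = 0.605, exact permutation p = 0.2), and -0.14 without spermine oxidase muscle 1. Mcm6 read 8.92, 9.48, 9.48 and 9.44 in spermine oxidase muscles, against 9.35, 9.56, 9.72 and 9.52 in control muscles, a difference of -0.20 ± 0.14 (limma adjusted p = 0.655). Without spermine oxidase muscle 1 the Mcm6 difference was -0.069. Mcm2 read 8.89, 8.97, 8.92 and 8.84 in spermine oxidase muscles, against 8.98, 9.01, 9.03 and 8.91 in control muscles. Its difference was -0.078 ± 0.037 (limma unadjusted p = 0.0661, adjusted p = 0.498), and both Mcm2 and Mcm6 were lower at each of the 4 replicate numbers. Mcm4, the brightest, averaged 10.44 ± 0.30 in spermine oxidase and 10.60 ± 0.18 in control muscles (SD, n = 4 each). Mcm3 and Mcm7, close to the floor, differed by -0.0085 and -0.017. All 6 subunits were thus lower in the mean, by amounts that differed widely, and on the brightest probe of each the groups overlapped. Other probes of Mcm6 gave -0.13, -0.17 and, at the floor, -0.032. The 2 other Mcm4 probes, at the floor, gave 0.031 without overlap and -0.018 with overlap.

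The enzymes that make DNA building blocks did not share a direction. Tyms, thymidylate synthase, read 8.61, 8.90, 8.82 and 8.87 in spermine oxidase muscles, against 8.83, 8.99, 9.01 and 9.04 in control muscles. Only spermine oxidase muscle 2 and muscle 4 lay above the lowest control. Its difference of -0.17 ± 0.07 had the smallest p of the S phase members (limma unadjusted p = 0.0513, adjusted p = 0.454). The 4 dimmer Tyms probes differed by 0.0022 to 0.055, with the other sign. Of these, the probe at a mean of 8.25 gave 0.051 ± 0.021 (limma over every probe, unadjusted p = 0.042, adjusted p = 0.454). Tk1, thymidine kinase, which salvages thymidine, read 9.10, 9.17, 9.22 and 9.17 in spermine oxidase muscles, against 8.95, 9.11, 9.19 and 9.12 in control muscles (0.078 ± 0.051, limma adjusted p = 0.645, and 0.031 without control muscle 1). Rrm1, the large subunit of ribonucleotide reductase, read 9.66, 9.48, 9.65 and 9.64 in spermine oxidase muscles, against 9.47, 9.50, 9.67 and 9.44 in control muscles (0.09 ± 0.06, limma adjusted p = 0.643). Tk1 and Rrm1 were thus higher in the mean, with overlap, while Rrm2, the small reductase subunit made in S phase, differed by -0.047. The second Rrm2 probe gave -0.095.

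Regulators of entry into S phase differed little. Ccnd1, cyclin D1, was the brightest member and also varied most between muscles of 1 group. It read 10.72, 11.56, 11.47 and 11.12 in spermine oxidase muscles, against 11.13, 11.38, 11.71 and 11.19 in control muscles (-0.14 ± 0.20, limma adjusted p = 0.863). Muscle 1 of the spermine oxidase group set that sign, since the difference was 0.03 without it. Its 2 other probes gave -0.087 and -0.064. Pcna, the sliding clamp of the replication polymerases, read 8.39, 8.41, 8.50 and 8.44 in spermine oxidase muscles, against 8.30, 8.38, 8.48 and 8.53 in control muscles (0.011 ± 0.051, limma adjusted p = 0.964). Ccne1, cyclin E1, and Cdc6, which loads the helicase, differed by -0.041 and -0.0017.

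Cdk1, the kinase that drives mitosis, was the member with the smallest p. It read 8.40, 8.76, 8.74 and 8.81 in spermine oxidase muscles, against 8.87, 9.06, 9.17 and 9.13 in control muscles, so that every spermine oxidase muscle lay below every control. The Cdk1 mean was 8.68 ± 0.19 after spermine oxidase and 9.06 ± 0.13 in control muscles (SD, n = 4 each), which is 1.30-fold higher in controls on this scale. The difference was -0.38 ± 0.10 (limma unadjusted p = 0.0066, adjusted p = 0.268, rank 407 of all genes, exact permutation p = 0.0286). It ranged from -0.44 to -0.29 when single muscles were left out, with limma adjusted p-values of 0.219 to 0.518. The 2 other Cdk1 probes, at the floor, gave -0.017 and 0.031. Kif23, a kinesin of the central spindle needed for cytokinesis, was the other member without overlap. It read 8.40, 8.55, 8.57 and 8.52 in spermine oxidase muscles, against 8.60, 8.60, 8.68 and 8.60 in control muscles. That is a difference of -0.11 ± 0.04 close to the floor (limma unadjusted p = 0.0268, adjusted p = 0.378). The Kif23 difference was -0.073 without spermine oxidase muscle 1.

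Of the proteins that act on spindle microtubules, Prc1 had the largest difference. Prc1, which cross-links spindle microtubules at the midzone, read 9.18, 10.03, 9.75 and 9.92 in spermine oxidase muscles, against 9.76, 10.10, 10.20 and 10.35 in control muscles. Its mean difference, -0.38 ± 0.20, was as large as that of Cdk1, but its spread was wider and the groups overlapped (limma adjusted p = 0.554). Without spermine oxidase muscle 1 it was -0.20. Kif11, the motor that pushes spindle poles apart, read 8.30, 8.45, 8.42 and 8.41 in spermine oxidase muscles, against 8.40, 8.50, 8.57 and 8.43 in control muscles (-0.078 ± 0.046, limma adjusted p = 0.596). Nusap1 and Tpx2, which bind spindle microtubules, differed by -0.14 and -0.026, within their spread. The 2 dimmer Nusap1 probes, at the floor, gave 0.0042 and 0.0088.

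Of the chromosome and checkpoint genes, Cenpa, Mad2l1 and Birc5 had the larger differences, with overlap between the groups. Cenpa, the histone variant that marks centromeres, read 10.19, 10.86, 10.81 and 10.68 in spermine oxidase muscles, against 10.58, 10.94, 11.14 and 11.11 in control muscles. That difference was -0.31 ± 0.18 (limma adjusted p = 0.587), and -0.16 without spermine oxidase muscle 1. Top2a, the topoisomerase that untangles sister chromosomes, read 8.53, 8.97, 9.02 and 8.88 in spermine oxidase muscles, against 8.72, 9.12, 9.06 and 9.05 in control muscles (-0.14 ± 0.13, limma adjusted p = 0.756, and -0.031 without spermine oxidase muscle 1). In both genes muscle 1 was the lowest of its own group. Mad2l1, which holds back anaphase until chromosomes are attached, read 8.76, 9.0, 9.07 and 8.95 in spermine oxidase muscles, against 8.99, 9.14, 9.36 and 9.07 in control muscles. Its difference was -0.19 ± 0.09 (limma adjusted p = 0.507), and spermine oxidase muscles 2 and 3 lay above the lowest control. Cdca8 and Birc5, subunits of the chromosomal passenger complex, differed by -0.067 ± 0.041 and -0.16 ± 0.11. Cdca8 read 8.28, 8.37, 8.41 and 8.35 in spermine oxidase muscles, against 8.32, 8.48, 8.43 and 8.44 in control muscles. Birc5, better known as survivin, was lower on each of its 3 probes, the dimmest by -0.077. Bub1b, a checkpoint kinase, differed by 0.055.

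Among genes of mitotic entry and exit, Cdc20 and Cdca3 had the larger differences. Cdc20, which activates the ubiquitin ligase that ends mitosis, read 8.78, 9.18, 8.93 and 8.93 in spermine oxidase muscles, against 8.90, 9.10, 9.37 and 9.26 in control muscles (-0.20 ± 0.12, limma adjusted p = 0.601). All 4 Cdc20 probes were lower in the mean, the 3 dimmer ones by -0.087, -0.044 and -0.038. Cdca3, a trigger of entry into mitosis, read 8.96, 9.45, 9.30 and 9.15 in spermine oxidase muscles, against 9.22, 9.34, 9.65 and 9.61 in control muscles (-0.24 ± 0.13, limma adjusted p = 0.571). Its second probe, at a mean of 8.45, gave -0.11 ± 0.03 without overlap. Plk1, polo-like kinase 1, differed by -0.12 and Aurka, aurora kinase A, by 0.0015. Cks2, a Cdk-binding subunit, was the one member outside S phase given in full that was higher. It stayed at the floor, at 8.23, 8.19, 8.24 and 8.19 in spermine oxidase muscles, against 8.18, 8.15, 8.20 and 8.18 in control muscles (0.035 ± 0.020, limma adjusted p = 0.585).

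**Figure D2:**
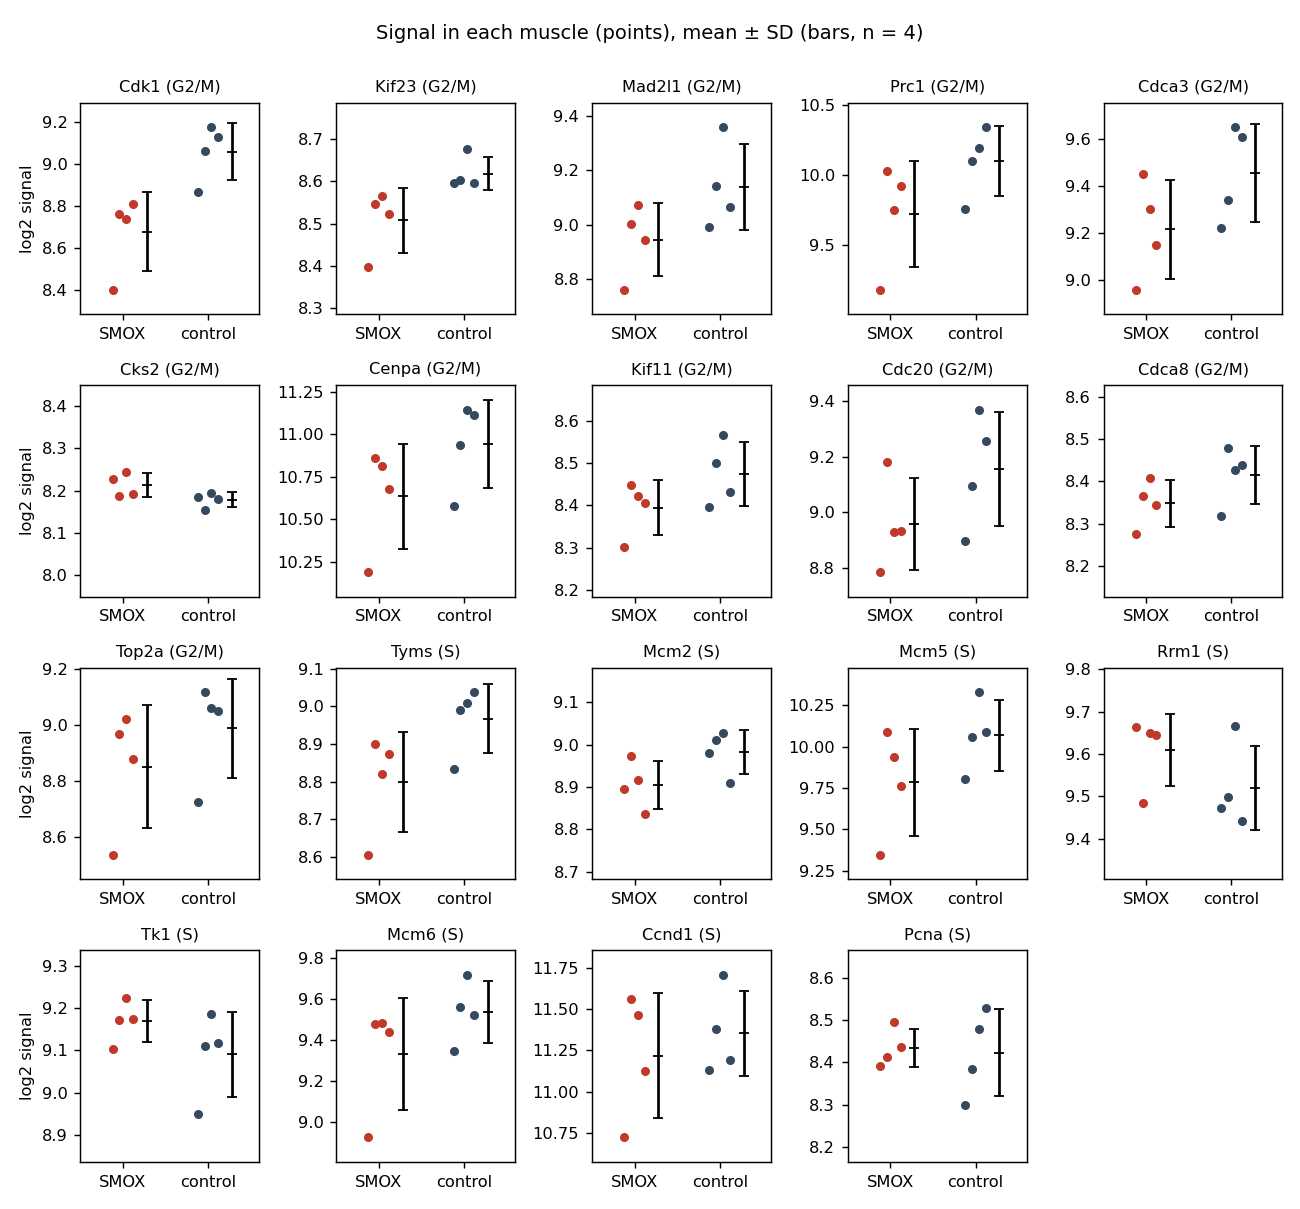
Points are the log2 signals of single muscles for the 19 members given in full, spermine oxidase (SMOX, red, left) and control (dark, right) in order of replicate number, with bars for mean ± SD (n = 4). Panels differ in their vertical range. Only Cdk1 and Kif23 separate the groups, and SMOX muscle 1 is the lowest point of most panels.

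The same muscles were often the lowest and the highest. Spermine oxidase muscle 1 was the lowest of the 8 muscles for 26 of 39 members (66.7%), where it was lowest for 19.2% and highest for 21.4% of all genes. Control muscle 3 was the highest for 19 of 39 members (48.7%), where it was highest for 11.8% of all genes. Among the 9 members at or under the median signal it was lowest for 3 and highest for 3, and control muscle 3 was highest for 0. Muscle 1 of the spermine oxidase group was lowest for 17 of 25 mitosis and 9 of 14 S phase members, and control muscle 3 highest for 12 of 25 mitosis and 7 of 14 S phase members. Spermine oxidase muscle 1 had a median deviation from the 8-muscle mean of -0.13 for mitosis and -0.081 for S phase members. Among controls, muscle 1 was the low one, with -0.058 for mitosis and -0.084 for S phase members. The other 3 spermine oxidase muscles had median deviations of -0.028 to 0.0031 for mitosis members, inside the range of the controls. For S phase members every spermine oxidase muscle lay inside the range of the controls, which ran from -0.084 to 0.093. Leaving out spermine oxidase muscle 1 and control muscle 3 together, which was decided once the values were known, gave medians of -0.0077 for mitosis and 0.022 for S phase members, with 60% and 28.6% of them lower. Leaving out spermine oxidase muscle 1 and control muscle 4 gave -0.035 for mitosis (72% lower) and -0.023 for S phase members (64.3% lower). Since control 3 and spermine oxidase 1 were most often the highest and the lowest muscles, the differences had to shrink. Without spermine oxidase muscle 1 alone, the differences of Tyms, Cdca3, Kif11 and Cdca8 were -0.10, -0.15, -0.047 and -0.043. With control muscle 3 left out as well, Cdk1 still differed by -0.25 and did not pass (limma adjusted p = 0.492).

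**Figure D3:**
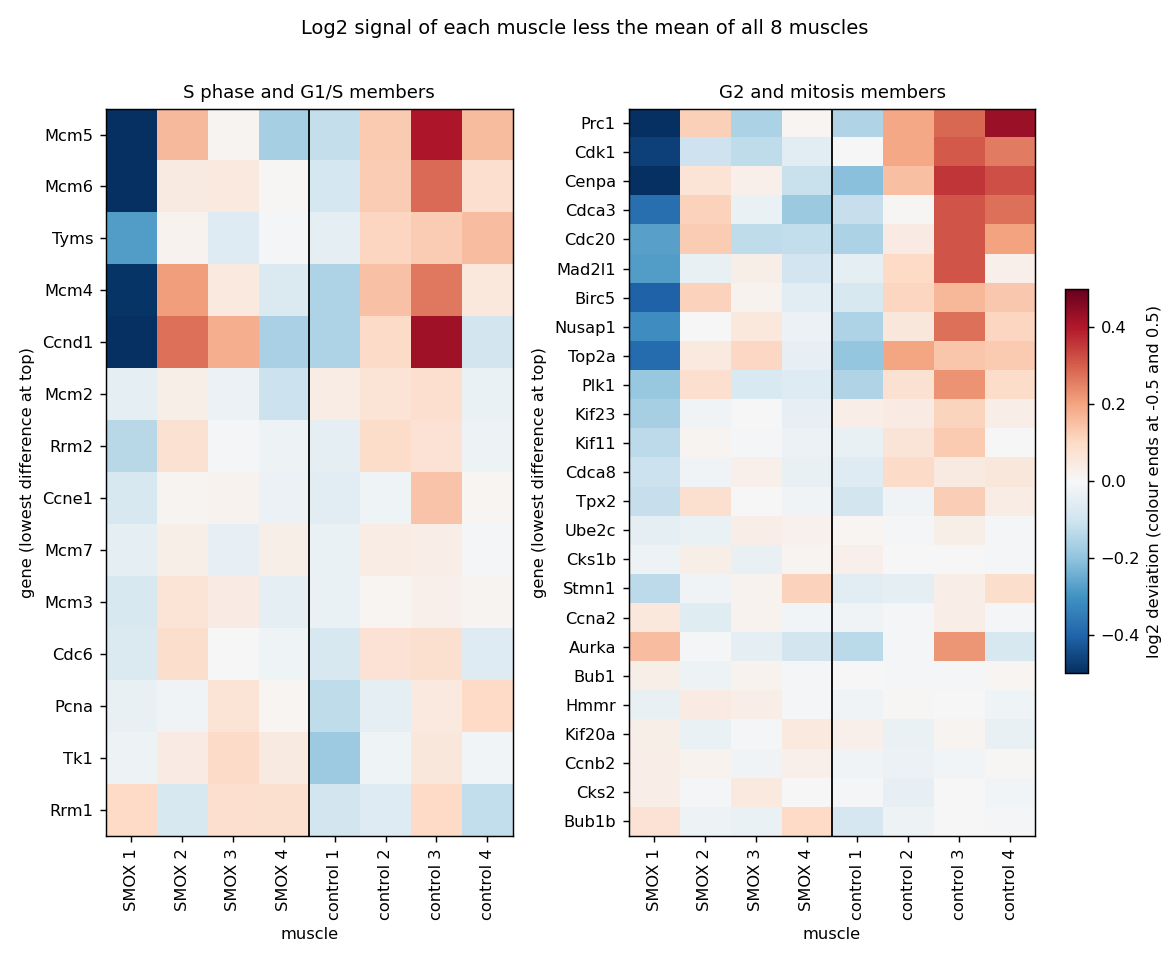
Rows are the 14 S phase members (left) and the 25 mitosis members (right), ordered by their difference, and columns are the muscles, spermine oxidase (SMOX) left of the line and control right of it. Colour gives the log2 signal less the mean of the 8 muscles, blue for lower and red for higher. SMOX 1 is the lowest muscle in 26 of the 39 rows and control 3 the highest in 19.

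Compared at equal replicate numbers, spermine oxidase minus control, the members differed from number to number. The median over mitosis members was -0.057, -0.0020, -0.11 and -0.057 at numbers 1 to 4, and that over S phase members was -0.067, 0.023, -0.098 and -0.063. Number 2 stood apart, with 15 of 25 mitosis and 6 of 14 S phase members lower. Over all genes the 4 medians lay between -0.0028 and 0.0005. In all, 12 of 39 members were lower at each of the 4 numbers, namely 9 mitosis and 3 S phase genes, where 11.1% of all genes were. Cdk1 differed by -0.47, -0.30, -0.44 and -0.32, while Prc1 differed by -0.58, -0.07, -0.45 and -0.42. Mcm5 gave -0.46, 0.03, -0.39 and -0.32. Tk1 and Cks2 were higher at each number, by 0.16, 0.06, 0.04 and 0.06 for Tk1. No label says that a number marks 1 mouse.

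**Figure D4:**
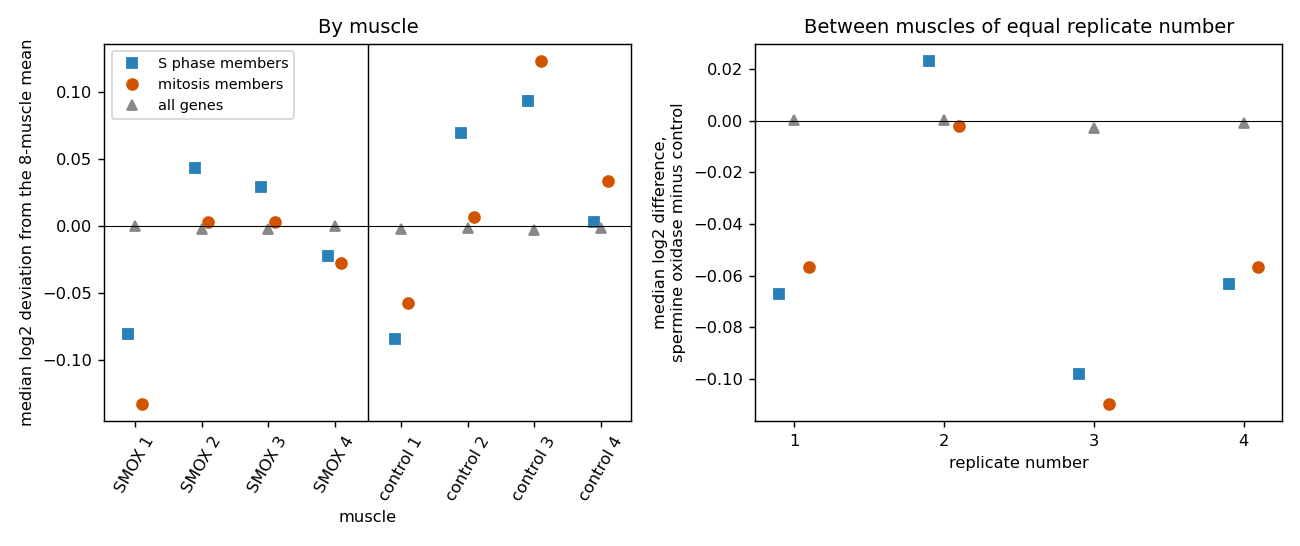
On the left, the vertical axis is the median over the S phase members (squares), mitosis members (circles) or all genes (triangles) of the log2 deviation from the 8-muscle mean, for each muscle. On the right it is the median log2 difference, spermine oxidase minus control, between muscles of equal replicate number. SMOX 1 and control 1 are low and control 3 is high on the left, and number 2 lies closest to 0 for mitosis members and above 0 for S phase members on the right.

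Other genes of the cell cycle, 115 measured of 131 in 5 lists, were read in the same fit, and 0 of them passed. In all, 80 of 115 were lower, with a median difference of -0.032. Of 33 other mitosis genes 26 were lower (median -0.034), and of 40 other replication genes 26 were lower (median -0.031). At an unadjusted p under 0.05, 13 of the 115 were lower and 5 higher, beside 4.72% and 6.33% of all genes. The groups did not overlap for 8 lower and 2 higher genes, beside 2.51% and 3.66% of all genes. Mad1l1, the checkpoint partner of Mad2l1, had the smallest p of the mitosis list (-0.12 ± 0.03, limma adjusted p = 0.233), ahead of Sgo1, the protector of centromere cohesion (-0.11 ± 0.04), Bub3, a checkpoint protein (0.17 ± 0.06), and the chromosome motor Kif22 (-0.25 ± 0.10). Sgo1's 3 dimmer probes, at the floor, gave -0.018 to 0.0078. The replication list was led by genes of both signs, namely Pold2, a subunit of DNA polymerase delta (0.20 ± 0.06, limma adjusted p = 0.286), the origin recognition subunit Orc6 (-0.12 ± 0.04), the clamp loader subunit Rfc1 (0.10 ± 0.03) and the single-strand binding subunit Rpa3 (-0.15 ± 0.05).

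Of 11 other cyclins, kinases and activators, 7 were lower. Ccnd3, cyclin D3, which muscle expresses during differentiation, read 10.82, 11.14, 11.20 and 11.33 in spermine oxidase muscles, against 11.38, 11.38, 11.48 and 11.58 in control muscles. That difference of -0.33 ± 0.11 separated the groups but did not pass (limma adjusted p = 0.321), and its 2 dimmer probes gave -0.040 and 0.0070. Skp2, which targets the inhibitor p27 for degradation, differed by -0.11 ± 0.03 (limma adjusted p = 0.230) with dimmer probes at -0.030 and -0.021, and Cdc25c and Ccna1, at the floor, by -0.060 and 0.043. Of the 16 brakes of the cycle 12 were lower, with a median difference of -0.020, and 1 of the 16 was lower at all 4 replicate numbers. Cdkn1c and Cdkn1a, the Cdk inhibitors p57 and p21, had the larger differences, -0.87 ± 0.30 (limma adjusted p = 0.358) and -0.60 ± 0.22 (limma adjusted p = 0.377), and overlapped between groups. Cdkn1a was lower on its other probes too, by -0.41 and -0.28. Cdkn2a and Cdkn2d differed by -0.067 and -0.073. Of 15 transcription factors 9 were lower. E2f1 and E2f2, activators of S phase genes, differed by -0.16 ± 0.06 without overlap (limma adjusted p = 0.369) and by -0.25 ± 0.09 with overlap, and the second E2f2 probe of like signal gave -0.34. E2f6, a repressor of the same family, was higher on each of its 3 probes, by 0.33, and its brightest probe read 12.59, 12.24, 12.52 and 12.27 in spermine oxidase muscles, against 12.17, 12.14, 12.10 and 11.88 in control muscles (limma adjusted p = 0.292). Myc lay at the floor (-0.059).

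Marker genes of other cell types differed in both directions, and their part in the result was not tested. Summed linear signals (2 to the power of the log2 value, floor included) of 9 macrophage genes ran from 19986 to 31392 in spermine oxidase muscles and from 29431 to 44696 in control muscles, with 6 of the 9 lower and none at or under the median probe. The sums rest mostly on Lyz2, C1qb and C1qc, while Cd163, a scavenger receptor of macrophages, was higher by 0.22 (limma unadjusted p = 0.0010, adjusted p = 0.179) and Mrc1 and Itgam differed by 0.036 and 0.0038. The macrophage sum was lowest in spermine oxidase muscle 1 and highest in control muscle 4. Of 6 satellite cell and regeneration genes 5 were lower, with sums of 9754 to 29313 in spermine oxidase and 30564 to 39684 in control muscles, a sum that Myh8 dominates. Pax7 and Myf5, which define satellite cells, were at the floor. For fibroblasts 6 of 7 genes were lower, with sums of 28409 to 37869 in spermine oxidase and 31749 to 42175 in control muscles, and none at or under the median probe. Lymphocyte genes were lower in 6 of 8, with sums of 3118 to 4573 in spermine oxidase and 3506 to 5198 in control muscles, and with Cd4, Cd8a, Cd79a and Ms4a1 at or under the median probe. For neutrophils 4 of 5 genes were lower, with sums of 1848 to 2086 in spermine oxidase and 2008 to 2598 in control muscles, and Cxcr2, Mpo and S100a9 at or under the median probe. Endothelial genes went the other way, with 7 of 7 higher, sums of 4893 to 5776 in spermine oxidase and 4622 to 4867 in control muscles, and Kdr at or under the median probe. None of these genes passed the limma test. By muscle, the fibroblast sum was lowest in spermine oxidase muscle 1 and highest in control muscle 4, like the macrophage sum. The lymphocyte sum was lowest in spermine oxidase muscle 1 and highest in control muscle 3, the muscles most often so for the members. The satellite cell and neutrophil sums were lowest in spermine oxidase muscle 3 and highest in control muscle 4. The endothelial sum was highest in spermine oxidase muscle 1 and lowest in control muscle 3.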

How the data were processed

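Total RNA was amplified, labelled with biotin and hybridised to Illumina bead arrays, per the labels' protocols. The authors deposited log2 values for 25697 probes and 8 muscles, already normalized between arrays, as the values show, since sorted values differed between arrays by 0.155 at most. How they were normalized and background-corrected is not stated in the labels. GEO's platform annotation gave the gene names (23978 with 1 gene, 0 with several, 1719 unnamed), and 23962 Entrez identifiers matched RefSeq (GRCm38.p6). Each gene took its brightest probe. The 39 members had 67 probes.

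Muscles were grouped by title. The comparison used limma 3.58.1 under R 4.3.3 (two-sided, Benjamini-Hochberg over 16593 genes, threshold 0.05), and single genes also by the exact permutation test over samples (70 splits of 4 against 4). Array weights and the robust prior used statmod 1.5.0, and plots matplotlib 3.10.9. The fit was tested on simulated data. Given in full were Mki67 (no probe), Top2a, Pcna, Cdk1 and Ccnd1, the 6 S phase and 10 mitosis members with the smallest p, and members without overlap, and of each other list up to 4 genes. Motifs were searched in RefSeq promoters. The members, lists and rules were chosen with earlier results of these data known. Alternatives were the replicate block, quantile and median normalization, leaving out the dimmest 40% or 60% of probes, averaging probes per gene, taking every probe singly, array weights, the test without moderation, a prior that follows intensity robustly, an offset of 16 on the linear scale and leaving out muscles.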

Additional observations from a re-analysis of the deposited data

Results flagged for a closer look

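Dixon's test for a stray value was run on 84 groups of 4 muscles. It covered the members and other genes given in full, and the median deviations of the S phase and mitosis lists. Of the 84 groups, 8 exceeded its 95% critical value, where chance alone would give about 5% of groups. Spermine oxidase replicate 1 was low for Mcm6 (8.92, nearest value 9.44) and for Sgo1 (8.31, nearest 8.41). Among the other spermine oxidase muscles, replicate 2 was low for Rrm1 (9.48, nearest 9.64) and replicate 3 for Cdkn2d (9.04, nearest 9.17). In controls, replicate 3 was high for Kif23 (8.68, nearest 8.60), replicate 1 low for Top2a (8.72, nearest 9.05), replicate 2 low for Cdc25c (8.296, nearest 8.302, a gap at the floor) and replicate 4 low for Pold2 (9.41, nearest 9.61). The causes were not tested.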

How the results depend on the processing

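The count of genes passing an adjusted p of 0.05 with limma was 0, and 266 with the replicate number as a block, where 1 member passed, Cdk1 (adjusted p = 0.0274). The numbers were not taken to pair the muscles, because deviations from the group means correlated at 0.58, -0.13, 0.65 and 0.60 for numbers 1 to 4, and spermine oxidase muscle 2 correlated best with control muscle 3 (0.36). The count was 8 with an intensity trend and robust prior, 1 with the offset of 16 on the linear scale and 0 to 14 without single muscles, with 0 members in each. The offset moved the median difference to -0.15 for S phase members, -0.29 for mitosis members and -0.11 for other cell cycle genes, since it stretches the dim end. Without the dimmest 40% of probes the median of the other cell cycle genes was -0.059, and without the dimmest 60% it was -0.078, and -0.18 for mitosis members, fewer and brighter genes being left. Without control 3 and spermine oxidase 1 together, 28.6% of S phase members were lower, the other cell cycle genes had a median of -0.0052, and Ccnd1 turned to 0.15. Over single muscles left out, Ccnd1 ran from -0.25 to 0.030 and Pcna from -0.030 to 0.046. Apart from these values of Cdk1, Ccnd1 and Pcna, the members given in full kept their sign and stayed short of the threshold under each setting that gave them a value. Taking every probe singly gave values for the lists and not for these genes, Cks2 had no value without the dimmest 40% of probes, and Kif11, Cks2, Cdca8 and Pcna had none without the dimmest 60%. Both settings that bring in dimmer probes gave smaller medians, -0.017 for S phase (58.1% lower) and -0.041 for mitosis members with every probe, and -0.029 and -0.043 with the mean of a gene's probes, which also left Cdk1 at -0.12 and Tyms at -0.0080. Depth is not stated for arrays, and signal near the floor limits the 9 dimmest members.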
